A study of Mus musculus with 9 samples.

Results

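Indirect-pathway striatal-like neurons were examined in single-nucleus RNA sequencing of the pooled hippocampus and cortex of 9 mice. Members were 1912 of 74895 nuclei that had 200 to 5000 detected genes and at most 10% mitochondrial UMIs (unique molecular identifiers, which count captured RNA molecules). A member had at least 1 UMI of Gad1 or Gad2, at most 1 UMI of Slc17a7, and at least 1 UMI of 2 or more of the 5 striatal genes Rgs9, Pde10a, Ppp1r1b, Rarb and Syndig1l. It also had at least 1 UMI of Drd2 or Adora2a and no UMI of Drd1. Members were thus chosen by the measured UMIs of these 11 genes, which are described and not tested.

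All mice were male C57BL/6 animals of WT genotype, and each gave 1 library, with 3 mice in each of 3 groups. Young AAV-EGFP mice were 5 months old, and aged AAV-EGFP and aged AAV-B3GNT3 mice were 19 months old. Every mouse, controls included, had received a virus into the retro-orbital sinus 8 weeks before tissue collection, so no group was free of virus. The AAV-PHP.V1 vector carried a CLDN5 promoter fragment active in endothelial cells and expressed EGFP alone or EGFP together with B3GNT3, a glycosyltransferase that extends mucin-type O-glycans. Any change in a neuron was therefore measured in cells that the promoter was not designed to drive. The tissue was dissected from frozen hemispheres and the nuclei were sorted as Hoechst-stained singlets.

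The 9 libraries held 47332047 to 79964605 UMIs each, and the members of a mouse together held 743778 to 3185618 UMIs. Members numbered 193, 332 and 70 in the young AAV-EGFP mice, 207, 244 and 310 in the aged AAV-EGFP mice, and 150, 226 and 180 in the aged AAV-B3GNT3 mice. Young replicate 3 thus gave the fewest members and the shallowest sum. Of 77081 different barcodes, 734 occurred in more than 1 library, with 7 to 37 shared by any pair of libraries.

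Spiny projection neurons are the GABAergic output neurons of the striatum and fall into a pair of classes. Indirect-pathway neurons carry the D2 dopamine receptor (Drd2), which lowers cAMP, together with the A2A adenosine receptor (Adora2a), which raises it, and they make enkephalin from Penk. Direct-pathway neurons carry the D1 receptor (Drd1), which raises cAMP, and make substance P from Tac1 and dynorphin from Pdyn. These classes define the striatum rather than hippocampus or cortex, the tissues named in the labels. The libraries also held nuclei of the labelled tissue, including 3949 that met a glutamatergic gate with no UMI of Gad1 or Gad2.

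Among the rule's genes, Drd2 was detected in 95.5% of members (93.1% to 98.7% by mouse) and Adora2a in 62.1% (54.1% to 70.5%). Pde10a, a phosphodiesterase that breaks down cAMP and cGMP in spiny neurons, was detected in 99.8%. Rarb, a retinoic acid receptor, was found in 95.03%, Rgs9, a regulator that shortens G protein signals, in 93.5%, and Ppp1r1b, which encodes DARPP-32, in 51.4%. Syndig1l was detected in 36.1%. Of all members, 1101 had both Drd2 and Adora2a, 724 had Drd2 only and 87 had Adora2a only. The 11 genes were set by the rule, and these shares describe how strongly each shaped the membership.

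Genes outside the rule were then used to check the label. Penk was detected in 63.9% of members, against 10.3% of 1427 Drd1 counterparts, 3.42% of the glutamatergic gate and 2.83% of an oligodendrocyte gate. Median UMIs per nucleus by mouse were 7373.5 to 10224.5 in members, 8211.5 to 11211 in Drd1 counterparts, 11238 to 15183 in the glutamatergic gate and 1918.5 to 2947 in the oligodendrocyte gate. Penk was thus several times more frequent in members than in nuclei of equal or greater depth. Drd1 counterparts met the same limits and the same GABAergic and striatal criteria, had at least 1 UMI of Drd1, and had none of Drd2 or Adora2a.

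Several striatal genes outside the rule were present in both kinds. Foxp1, a transcription factor of spiny neurons, was detected in 97.8% of members and 95.4% of Drd1 counterparts, but also in 93.6% of the glutamatergic gate. Bcl11b, which encodes Ctip2, was in 91.5% and 91.8% of the 2 kinds, against 58.2% of the glutamatergic gate. Adcy5, the main striatal adenylyl cyclase, was found in 93.6% and 92.0%, and in 31.5% of the oligodendrocyte gate and 47.3% of the glutamatergic gate. Six3, a transcription factor of indirect-pathway development, was found in 20.3% and 16.0% of the 2 kinds, and in 0.20% to 0.21% of the glutamatergic and oligodendrocyte gates. Other striatal genes of the list were rare in members or no more frequent there than elsewhere. Zfp503 was in 2.04% of members. Ikzf1 was in 1.67% of members, against 8.41% of Drd1 counterparts and 3.01% of the oligodendrocyte gate. Ppp1r1a was in 24.2% of members and 24.6% of the glutamatergic gate. Of the dopaminergic list, Th was detected in 0.10% of members, Slc18a2 in 4.603% and Ddc in 3.82%, against 0.05%, 7.12% and 1.82% of the glutamatergic gate.

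The label fitted most members and not those at the edge of the rule. Of the 1912 members, 180 had exactly 2 of the 5 striatal genes, 526 had 3, 781 had 4 and 425 had all 5. Penk was detected in 14.4% of those with 2, 64.6% with 3, 69.1% with 4 and 74.1% with 5. Among those with 2, Foxp1 was at 80.0%, Adcy5 at 51.1% and Meis2, a striatal homeobox gene, at 50.6%, whereas among those with 3 the shares were 99.2%, 95.2% and 97.5%. Meis2 was also in 60.5% of the glutamatergic gate and 74.6% of an astrocyte gate, so its detection alone does not set striatal nuclei apart here. Of the 9 interneuron markers, Lhx6 and Adarb2 were counted by number of striatal genes. Lhx6, a regulator of medial ganglionic eminence interneurons, was at 19.4% of members with 2 striatal genes and 1.33% with 3. Adarb2, which marks caudal interneurons in cortex, was at 53.3% and 25.7%, but it was also in 68.9% of Drd1 counterparts and so does not set interneurons apart here. The 275 nuclei just outside the rule, with 1 striatal gene and all else equal, had Penk at 5.09%, Foxp1 at 70.2% and Meis2 at 37.1%. Members with 2 striatal genes had a median of 9626.5 UMIs, against 8802 for all members, so they were not the shallower ones.

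**Figure D1:**
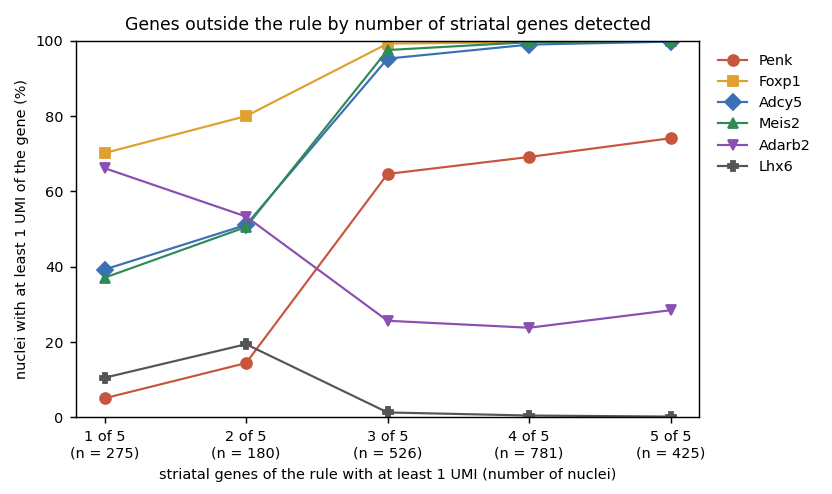
Share of nuclei (y axis, %) with at least 1 UMI of Penk, Foxp1, Adcy5, Meis2, Adarb2 and Lhx6 by the number of the 5 striatal genes detected (x axis), pooled over 9 mice with no error shown. The nuclei at 1 of 5 lie outside the rule, and the share with Penk went from 14.4% at 2 genes to 64.6% at 3.

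Membership also depended on which receptor was seen. Penk was detected in 73.4% of members with both receptors, 53.2% of those with Drd2 only and 32.2% of those with Adora2a only. Outside the rule, 99 nuclei that met all else but had Drd1 showed Penk in 34.3% and Tac1 in 43.4%, and 4474 nuclei with neither Drd2 nor Adora2a showed Penk in 6.50%. Members with both receptors had a median of 9443 UMIs and those with Drd2 only 8169.5.

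Members were compared with Drd1 counterparts within each mouse, to find which genes other than the 11 of the rule differ between indirect-pathway and direct-pathway nuclei. Called genes included those of neuropeptides, receptors, ion channels and transcription factors, and among the named genes with UMIs in both kinds the largest log2 differences were those of Upb1, Gm34557, Gpr6 and Il20ra. UMIs were summed per mouse and kind and tested with edgeR's quasi-likelihood test with the mouse as a block, and a gene was called at a Benjamini-Hochberg adjusted p under 0.05. Of 11412 genes tested, 982 were called, or 8.6%, with 447 higher (3.92%) and 535 lower (4.69%) in members. The median log2 difference over all genes tested was 0.0079. Levels below are CPM, UMIs of a gene scaled to a common library total, after TMM scaling, given as lowest, median and highest over the 9 mice.

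Penk, the enkephalin precursor on chromosome 4 (4133531 to 4138819, GRCm38, minus strand), was at 154, 189 and 246 CPM in members and 9.16, 13.7 and 28.5 in Drd1 counterparts. The 2 ranges did not overlap, and the log2 difference was 3.67 ± 0.11 (SE, n = 9 mice, edgeR adjusted p = 2.56e-16). Tac1, the substance P precursor, was at 3.18, 6.10 and 7.97 CPM in members and 60.2, 84.3 and 96.2 in counterparts, a log2 difference of -3.82 ± 0.12 (edgeR adjusted p = 9.73e-16). Pdyn, the dynorphin precursor, was lower by -3.71 ± 0.22 on the log2 scale. All 6 tested genes of a list of indirect-pathway genes outside the rule were higher, with a median of 3.24, and all 7 tested direct-pathway genes were lower, with a median of -3.82. These genes are textbook markers of the classes that the receptor genes separate, so their direction describes the gate.

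A receptor for enkephalin and enzymes that make or remove adenosine were among the called genes. Oprd1, the delta opioid receptor that binds enkephalin, was at 56.3, 70.2 and 92.0 CPM in members and 7.60, 8.95 and 31.3 in Drd1 counterparts, higher by 2.61 ± 0.16 on the log2 scale (edgeR adjusted p = 7.83e-11). Nt5e, the ectoenzyme CD73 that makes adenosine from AMP outside the cell, was at 40.8, 82.3 and 167 CPM in members and 5.39, 15.1 and 18.7 in counterparts. Its log2 difference was 2.65 ± 0.14 (edgeR adjusted p = 7.79e-12), and the ranges did not overlap. Adk, the kinase that removes adenosine inside the cell, was at 233, 358 and 502 CPM against 57.6, 98.8 and 145, a log2 difference of 1.93 ± 0.09 (edgeR adjusted p = 6.74e-13). Adk was picked out after its values were seen. In all 9 mice each of these 3 genes was higher in members.

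Of 46 tested genes of dopamine, adenosine and cAMP signalling, 17 were higher and 2 lower, with a median log2 difference of 0.15. Pde4b, a cAMP phosphodiesterase, was at 988, 1640.1 and 2645 CPM in members and 524, 920 and 1446 in counterparts, higher by 0.75 ± 0.06. The ranges overlapped while every mouse showed the same direction. Gnb5, the G protein subunit that partners Rgs9, was higher by 0.54. Of 20 tested peptide and peptide-processing genes, 4 were higher and 3 lower. Of 11 endocannabinoid genes, Mgll, which breaks down 2-AG, was higher by 0.29, and Faah and Dagla, which break down anandamide and make 2-AG, were lower by -0.62 and -0.32.

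**Figure D2:**
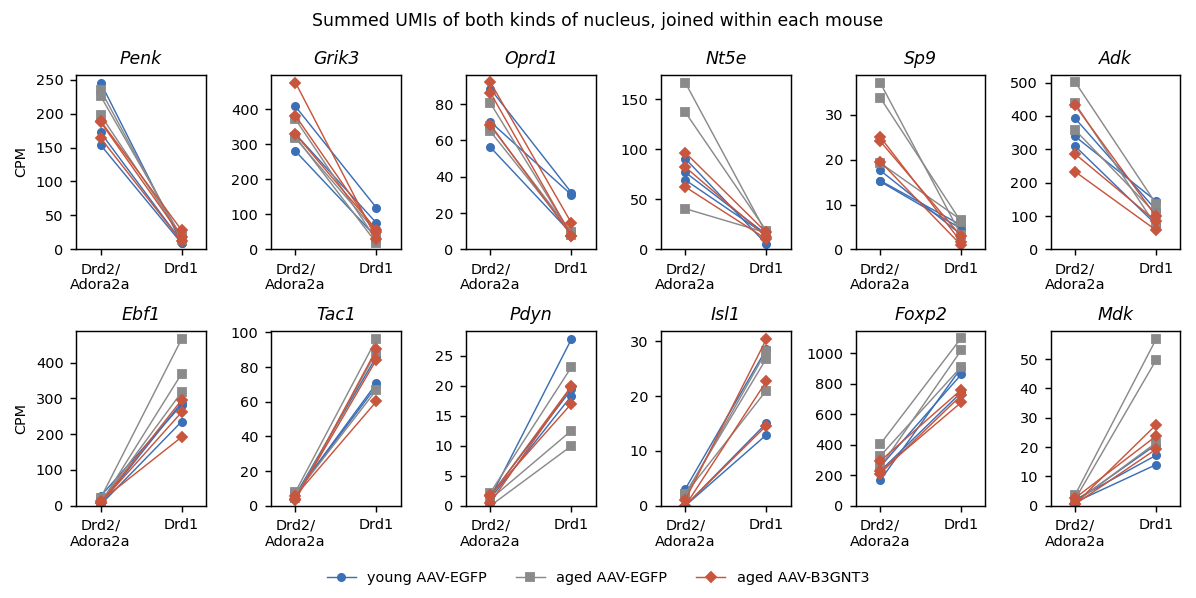
CPM (y axis, TMM-scaled) of 12 genes in summed members and summed Drd1 counterparts (x axis), with 1 point per mouse and kind, lines joining the kinds of a mouse, and colour and shape for the group. The 6 genes of the upper row were higher in members in 9 of 9 mice and the 6 of the lower row were lower in 9 of 9.

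Transcription factors of the 2 pathways were among the called genes. Ebf1, which directs direct-pathway neurons, was at 2.75, 8.39 and 26.8 CPM in members and 192, 288 and 465 in Drd1 counterparts (-4.59 ± 0.16, edgeR adjusted p = 3.33e-15). Isl1, a LIM homeobox gene of the same class, was lower by -4.02 ± 0.26. Sp9, a zinc finger gene needed for indirect-pathway neurons, was at 15.2, 19.6 and 37.2 CPM against 0.95, 3.30 and 6.57, higher by 2.58 ± 0.20 (edgeR adjusted p = 3.89e-09). The ranges of all 3 genes were apart.

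Differences were smaller among factors that both kinds express. Foxp2 was at 167, 254 and 403 CPM in members and 677, 860 and 1099 in counterparts, a log2 difference of -1.70 ± 0.07, and its relative Foxp1 was higher by 0.51 ± 0.04. Zfhx3, a large zinc finger homeobox gene, was at 337, 427 and 598 CPM in members and 148, 192 and 258 in counterparts, higher by 1.12 ± 0.06. Of 35 tested transcription factors 10 were higher and 8 lower, and of 17 tested striatal genes outside the rule 10 were higher and 2 lower with a median of 0.24.

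Among receptors and channels, Grik3, a kainate receptor subunit, was at 280, 329 and 476 CPM in members and 18.03, 48.4 and 119 in Drd1 counterparts. Its log2 difference of 2.97 ± 0.16 (edgeR adjusted p = 1.32e-11) was far above that of Grik2, another subunit, which was lower by -0.39. Of 40 tested glutamate receptor and scaffold genes 8 were higher and 6 lower. Of 37 potassium channel genes 5 were higher, among them the background channel Kcnk2 (0.83 ± 0.06), and 8 lower, among them the G protein-gated channel Kcnj3 (-0.78 ± 0.08). Of 42 calcium genes 13 were higher and 4 lower, with Cacnb2, a calcium channel subunit, higher by 0.88 ± 0.06 and Ryr1, a calcium release channel, lower by -0.74. Of 19 GABA genes 2 were higher, Gabrg3 (0.23) and Gabra4 (0.17).

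Activity-regulated genes that passed the test were all lower in members: 7 of 24, with a median over the list of -0.42. Arc, which regulates AMPA receptor traffic, was at 2.66, 12.1 and 16.0 CPM in members and 3.15, 33.4 and 47.6 in Drd1 counterparts, a log2 difference of -1.45 ± 0.13. The ranges overlapped at their low ends. Junb, an AP-1 subunit, was lower by -1.30 ± 0.16, and Egr4 and Egr3 by -1.14 and -0.62. Of 57 synaptic adhesion and wiring genes 11 were higher and 13 lower. Unc5d, a netrin receptor, was at 261, 508 and 988 CPM against 70.6, 288 and 349.7, higher by 1.29 ± 0.12, and Il1rapl2, a synapse organizer, was at 34.2, 123 and 167 against 244, 387 and 722, lower by -1.82 ± 0.12.

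Compartment genes of the striatum were mixed. Of 5 tested genes of eccentric or island spiny neurons, Otof (-0.92), Tshz1 (-0.99) and Casz1 (-1.27) were lower. Of 8 patch and matrix genes, Epha4 was among 2 higher (0.37), and Lypd1 (-0.78) was among 3 lower. Of 7 dorsal-ventral genes, Calb1 and Synpr were higher (0.49 and 0.36, the latter -0.16 when members were chosen on Adora2a) and Wfs1 and Crym lower (-0.84 and -0.60). Among 30 chaperones, 56 genes of oxidative phosphorylation and 4 immune genes edgeR made no call, with 6, 2 and 1 at an unadjusted p under 0.05. The same held for the cholinergic, dopaminergic, oligodendrocyte, astrocyte, microglia, endothelial and precursor lists, while Npy was the 1 lower gene of 7 interneuron genes and Cux2 of 5 excitatory genes. Of 11 genes linked to Huntington disease or dystonia 2 were higher and 1 lower, and of 6 neuronal genes that the study had named for AAV-B3GNT3 1 was higher.

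The kind comparison also named less familiar genes. Upb1, beta-ureidopropionase, was at 8.26, 24.96 and 31.2 CPM in members and 0, 0 and 0.95 in Drd1 counterparts, higher by 6.06 ± 0.32. Plxdc1, a membrane receptor, was higher by 2.26 ± 0.17, Nell1os by 2.15 ± 0.20, and the lincRNA Gm30313 by 3.8 ± 0.31. Ftl1-ps1 was higher by 2.79 ± 0.26 but is uncertain, since its name marks it as a copy of Ftl1 with which it can share reads. Lower in members were Gm34557 (-5.62 ± 0.36), the cytokine receptor gene Il20ra (-4.88 ± 0.39), Impg1 (-4.48 ± 0.12), the growth factor midkine Mdk (-3.97 ± 0.19), Sntg2 (-3.19 ± 0.11) and Gm6260 (-2.90 ± 0.23). Each of these kept its direction in 9 of 9 mice.

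Promoter sequence is shown for genes that hold a motif of cAMP-responsive or AP-1 factors, since both receptors of the members act through cAMP. These are genes of the 2 pathways and Nts, which is in neither pathway list and was called with age. RefSeq windows of GRCm38.p6, from 250 bases before to 50 after a start site, were found for 15 of 20 genes looked up. Penk, Gpr52, Necab1, Eya1 and Adora2a had no window and were not searched. Both strands were searched for TGACGTCA (the cAMP response element, in 1.79% of all 32851 windows), TGCGTCA (a variant of it, 2.12%), TGANTCA (the AP-1 element, 7.81%) and TGACG (the short core, which lies within the first motif, 20.8%). Capitals mark the match to 1 of the 3 longer motifs, and further matches to TGACG or its reverse complement stay in lower case. The Gpr6 stretch is at chr10:41072315-41072414 (minus strand), Tac1 at chr6:7554816-7554914 (plus), Isl1 at chr13:116309689-116309777 (minus) and Nts at chr10:102490573-102490668 (minus), with the match beginning 78, 199, 43 and 207 bases before the RefSeq start site.
Gpr6: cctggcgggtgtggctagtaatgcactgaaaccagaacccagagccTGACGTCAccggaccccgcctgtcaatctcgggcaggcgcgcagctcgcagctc
Tac1: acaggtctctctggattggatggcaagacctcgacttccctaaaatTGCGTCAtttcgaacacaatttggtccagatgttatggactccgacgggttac
Isl1: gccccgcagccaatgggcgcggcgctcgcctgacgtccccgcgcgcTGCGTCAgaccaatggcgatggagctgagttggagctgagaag
Nts: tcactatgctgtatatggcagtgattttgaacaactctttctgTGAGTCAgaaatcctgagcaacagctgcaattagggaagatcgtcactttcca
Gpr6, a constitutively active receptor that raises cAMP in indirect-pathway neurons, was at 4.18, 9.36 and 16.0 CPM in members and 0, 0 and 1.08 in Drd1 counterparts. The longer motifs were in none of the windows of the other genes found: Drd2, Sp9, Grik3, Ttc12, Pdyn, Ebf1, Chrm4, Sfxn1, Slc35d3, Drd1 and Nr4a3. Of these, Ttc12, Ebf1, Slc35d3 and Nr4a3 held the short core TGACG. A match is a description of these letters only.

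Genes beside the 3 receptor genes of the gate stood out. Within 200 kb of Drd2 (chromosome 9, 49340627 to 49408177), Adora2a (10, 75316877 to 75334784) or Drd1 (13, 54051183 to 54055705), 13 genes were tested, and these were looked at after Upb1 and Gm34557 had been seen. In members, 5 neighbours of Drd2 or Adora2a were higher, and 4 neighbours of Drd1 were lower, in all 9 mice. Over all genes tested between kinds, 8.6% were called. Upb1, 66.3 kb downstream of Adora2a on the same strand, had 399 UMIs in members and 4 in Drd1 counterparts. Ankk1, 7.02 kb downstream of Drd2 on the other strand, had 90 UMIs against 0, at least 24.98-fold higher with the floor of 3 counts set over all counterparts.

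The other neighbours ranged widely in distance. Ttc12, 28.8 kb from Drd2 on the other strand, had 94 UMIs against 6. Gucd1 (1.57 ± 0.14), which overlaps Upb1 on the other strand, and Specc1l (0.41 ± 0.07) lay 16.3 and 4.13 kb from Adora2a. Near Drd1, Gm34557 had 4 UMIs against 210 at 116 kb, and Gm48550 (-4.70 ± 0.50), Sfxn1 (-1.14 ± 0.10) and Hrh2 (-1.09 ± 0.16) lay at 74.5, 16.2 and 136 kb. The 4 neighbours without a call were Ncam1, Gm11149, Bcr and Snrpd3. Whether transcripts running on from the gated genes entered these counts was not tested.

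**Figure D3:**
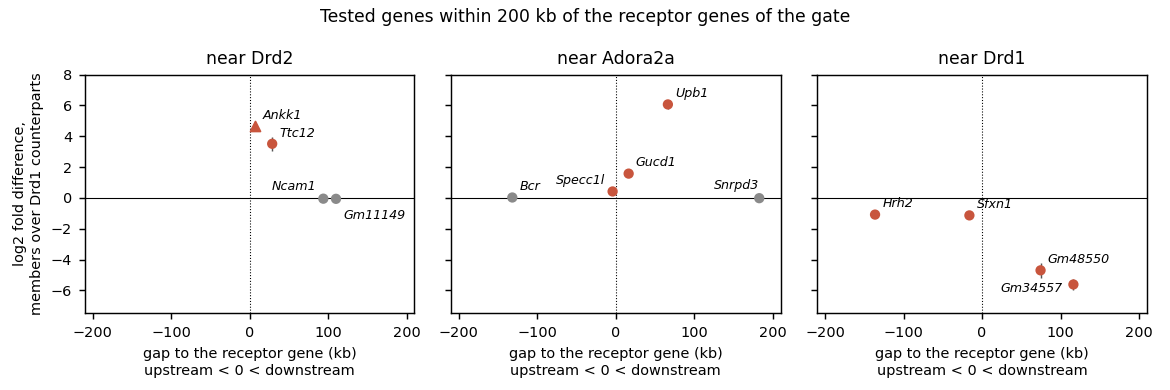
Log2 difference between members and Drd1 counterparts (y axis, error bars SE) of the 13 tested genes within 200 kb of Drd2, Adora2a or Drd1, by the gap to the receptor gene in kb (x axis, 0 marks the receptor, positive is downstream). Called genes are red and the others grey, and the triangle of Ankk1 is a lower bound, since Drd1 counterparts had 0 UMIs.

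The share of members among nuclei varied most among the young mice. It was 2.12%, 3.36% and 1.17% in young AAV-EGFP mice (mean 2.21 ± 1.10, SD, n = 3), 2.88%, 2.436% and 3.79% in aged AAV-EGFP mice (3.04 ± 0.69) and 2.432%, 2.26% and 2.16% in aged AAV-B3GNT3 mice (2.28 ± 0.14). The lowest and the second highest value were both in young mice, so that the young group overlapped both aged groups, while every aged AAV-EGFP mouse lay above every aged AAV-B3GNT3 mouse by a narrow margin. The F statistic, permuted exactly over the 280 ways to form 3 groups of 3, gave an exact p = 0.429, where 0.00357 is the smallest p possible. Without young replicate 2 the exact permutation p was 0.0357. Members per Drd1 counterpart were 2.17, 1.22 and 0.933, then 1.27, 1.17 and 1.22, then 1.44, 1.88 and 1.28. Since the labelled tissue is not striatum, the amount of striatum in a dissection and the share of these neurons cannot be told apart.

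Astrocyte markers in the members were lower in aged mice. The summed CPM of 5 astrocyte genes (Aqp4, Gja1, Slc1a3, Gfap and Fgfr3) was 115, 107 and 110 in young AAV-EGFP mice, 45.5, 31.3 and 27.3 in aged AAV-EGFP mice and 70.5, 84.6 and 25.1 in aged AAV-B3GNT3 mice. All young mice lay above all aged mice. The share of members with any UMI of these genes was 28.3 ± 5.998%, 13.2 ± 3.199% and 19.9 ± 4.005% (SD, n = 3 each), and nuclei that met an astrocyte gate made up 4.30 ± 0.77%, 2.65 ± 0.34% and 3.42 ± 1.04% of all nuclei. The interneuron list summed to 493, 672 and 1414 CPM, then 686, 501 and 226, then 883, 618 and 1024, with overlap among groups. Most of these sums came from Adarb2 and Nxph1, with means of 492 and 338 CPM in young mice. The means were 234 and 216 in aged AAV-EGFP mice and 527 and 231 in aged AAV-B3GNT3 mice. Mean sums in young and aged AAV-EGFP mice were 473 and 469 CPM for the oligodendrocyte list, 39.1 and 45.8 for microglia, 52.7 and 45.4 for precursors, 4.93 and 5.96 for endothelial cells and 157 and 105 for the excitatory list. Members with 3 or more UMIs of any 1 of the 7 other classes made up 52.3%, 54.2% and 58.6% of members in young mice. The shares were 42.0%, 36.5% and 34.5% in aged AAV-EGFP mice and 52.7%, 42.9% and 54.4% in aged AAV-B3GNT3 mice. Young and aged AAV-EGFP mice were thus apart. The interneuron list is 1 of the 7, so a member could be counted here for Adarb2, which 68.9% of Drd1 counterparts also carried. The precursor list was at 50.6, 46.7 and 38.9 CPM in aged AAV-EGFP mice and 25.8, 29.7 and 26.2 in aged AAV-B3GNT3 mice, with no overlap, and its part in the changes with AAV-B3GNT3 was not tested. Members at only 2 striatal genes made up 13.7 ± 5.90% of members in young, 6.96 ± 2.21% and 9.91 ± 1.04% in the aged groups with EGFP and B3GNT3.

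**Figure D4:**
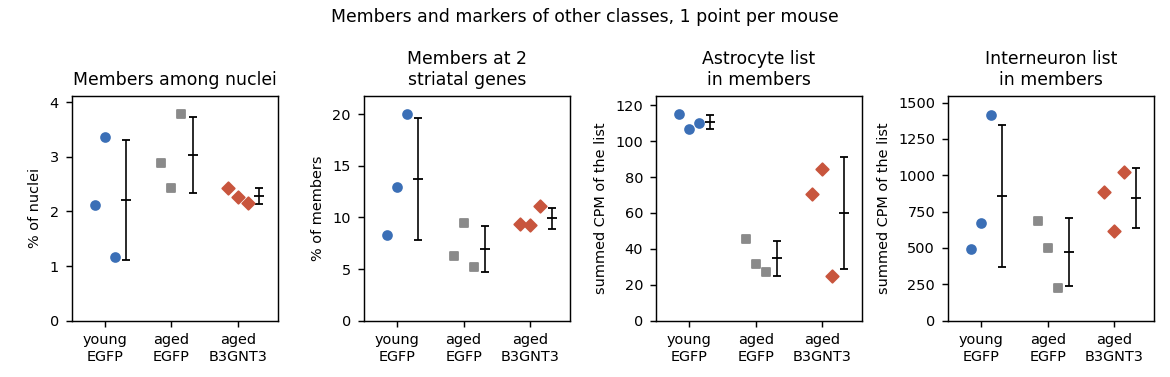
Per mouse, from left to right, the share of members among nuclei (%), the share of members with 2 striatal genes (%), and the summed CPM of the astrocyte and of the interneuron list in members, by group (x axis), with 1 point per mouse and the mean with SD beside the points. The 3 young mice have the 3 highest astrocyte sums, from 107 to 115 CPM, and in the first panel the lowest aged AAV-EGFP mouse lies at 2.436% and the highest aged AAV-B3GNT3 mouse at 2.432%.

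Ageing was assessed by setting aged AAV-EGFP against young AAV-EGFP mice. In the members, a neuropeptide, a nuclear receptor and several genes that are high in astrocytes fell, and a kappa opioid receptor and the GABA vesicle transporter rose. Of 10770 genes tested on the summed members, 149 were called (1.38%), 88 higher (0.817%) and 61 lower (0.566%) in aged mice, with a median over all genes of 0.011. Over all genes tested, the 2 groups did not overlap for 22.2% in this comparison, 17.6% in that of AAV-B3GNT3 with AAV-EGFP and 18.97% in that of aged AAV-B3GNT3 with young mice, and the largest rises and falls were named on condition of no overlap. The 3 group comparisons share their groups and are not independent of each other. The count rested on single mice: it was 26, 18 and 1 without young replicates 1, 2 and 3, 1015, 4 and 4 without aged AAV-EGFP replicates 1, 2 and 3, and 44, 74 and 145 without AAV-B3GNT3 replicates 1, 2 and 3. Without the upper limit of 5000 genes 2 genes were called, both lower (1723 at an unadjusted p under 0.05), and under the stricter gate, 3 striatal genes with no Slc17a7, 51 were called.

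Nts, the precursor of neurotensin (chromosome 10, 102481756 to 102490486), was at 6.02, 8.87 and 13.7 CPM in young mice, 1.08, 0.531 and 1.56 in aged AAV-EGFP mice and 0, 1.58 and 1.55 in aged AAV-B3GNT3 mice. Both aged groups lay below all young mice. The log2 change with age was -2.90 ± 0.58 (SE, n = 3 per group, edgeR adjusted p = 0.0348), on 0 to 27 UMIs a mouse. Nr4a3, an activity-induced nuclear receptor, was at 58.4, 26.9 and 26.0 CPM in young, 16.3, 1.06 and 4.36 in aged AAV-EGFP and 29.2, 26.3 and 12.4 in aged AAV-B3GNT3 mice, a change with age of -2.45 ± 0.53 (edgeR adjusted p = 0.0397). The first 2 groups did not overlap, and the third overlapped both. It was the 1 activity-regulated gene called of 20, with a list median of -0.29.

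The chaperone gene Hsp90b1, which encodes GRP94 of the endoplasmic reticulum, fell by 1.13 ± 0.19 on the log2 scale (78.3 ± 11.4 to 35.8 ± 4.35 CPM, SD, n = 3, edgeR adjusted p = 0.0239), and Dnajb5 fell by 1.38 ± 0.28 (24.5 ± 3.61 to 9.07 ± 3.39 CPM). These were the 2 called of 30 chaperones, whose median was -0.25. Cpe, the carboxypeptidase that trims neuropeptides, was at 421, 356 and 411 CPM in young and 228, 293 and 216 in aged AAV-EGFP mice, with no overlap, a change of -0.69 ± 0.15, and it was 7.65 times as high in an astrocyte gate as in members.

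Among rises, Oprk1, the kappa opioid receptor that binds dynorphin, was at 19.3, 21.7 and 26.0 CPM in young and 33.1, 43.0 and 41.1 in aged AAV-EGFP mice, a log2 change of 0.85 ± 0.19. Slc32a1, the vesicular GABA transporter, was at 7.22, 7.88 and 4.11 CPM in young and 13.01, 22.3 and 22.7 in aged AAV-EGFP mice, a change of 1.48 ± 0.31. Neither gene overlapped between the 2 groups. Sema3a, a secreted guidance factor, rose by 0.91 and was the 1 called of 57 adhesion and wiring genes. The largest rises were Npcd (2.74 ± 0.44, edgeR adjusted p = 0.0191), which is uncertain because Nptxr and Cbx6 lie over it on its own strand, Gm20629 (2.29), Klhl10 (2.14), Pradc1 (1.84), the selenoprotein gene Selenom (1.77) and AC149090.1 (1.71). Of the 88 higher genes 27.3% were noncoding, against 6.78% of all genes tested.

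The falls included genes that are higher in astrocytes. Slc1a3, the glial glutamate transporter GLAST, was at 84.9, 78.5 and 95.8 CPM in young and 36.8, 22.8 and 22.1 in aged AAV-EGFP mice (-1.67 ± 0.36). It was 51.9 times as high in the astrocyte gate as in members. Slc1a3 and Aqp4 were each detected in all 2588 nuclei of that gate, so the ratio of Slc1a3 follows from the gate and is no independent measure. Tcf7l2, a Wnt-pathway transcription factor, was at 28.3, 53.2 and 46.5 CPM in young, 19.5, 7.97 and 3.42 in aged AAV-EGFP and 10.7, 9.46 and 10.3 in aged AAV-B3GNT3 mice (-2.16 ± 0.41, edgeR adjusted p = 0.0293) and had an astrocyte ratio of 23.8. Glis3, a zinc finger gene with a ratio of 36.5, fell by 1.82 ± 0.23 (34.2 ± 8.82 to 9.22 ± 0.732 CPM, edgeR adjusted p = 0.00741). Nhsl1 (-2.04), Phka1 (-1.88) and the GABA transporter Slc6a11 (-1.86) had ratios of 49.6, 27.0 and 32.1.

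Of the 61 falls, 42.6% were at least 4 times as high in the astrocyte gate as in members, against 1.14% of the 88 rises and 5.52% of all genes tested. Slc1a3, which every nucleus of that gate carried, is counted among these falls. When only members with no UMI of the 5 astrocyte genes were summed, an alternative added after these genes were seen, 44 genes were called and 42 of them were among the 149. Nr4a3 (-2.83, edgeR adjusted p = 0.045), Hsp90b1 (-1.16) and Dnajb5 (-1.53) were still called. Tcf7l2 (-1.80, edgeR adjusted p = 0.137), Slc6a11 (-1.22, 0.274), Glis3 (-1.78, 0.0688), Cpe (-0.54, 0.106), Oprk1 (0.79, 0.0884) and Slc32a1 (1.28, 0.103) then missed the threshold, as did Nhsl1 (-1.62), Phka1 (-1.65), Klhl10 (2.19), Pradc1 (1.83) and Sema3a (0.88). Fewer members entered that fit.

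Genes that define the indirect pathway had no call with age. Penk had a log2 change of 0.22 ± 0.17 (edgeR adjusted p = 0.497), Grik3 of 0.01 and Necab1 of 0.27, and edgeR called none of 6 tested indirect-pathway genes, 16 striatal genes and 46 dopamine, adenosine and cAMP genes, of which 1, 2 and 9 had an unadjusted p under 0.05. No call does not mean no movement: Sp9 averaged 15.7 ± 1.17 CPM in young and 29.9 ± 9.66 in aged AAV-EGFP mice (SD, n = 3). The 53 tested genes of oxidative phosphorylation had a median of 0.34, against 0.011 over all genes, with none called by edgeR and 15 at an unadjusted p under 0.05, which 2105 of all 10770 genes reached. Ribosomal protein UMIs made up 0.144% to 0.149% of members' UMIs in young and 0.156% to 0.178% in aged AAV-EGFP mice, with no overlap, and their part in these values was not tested. Further lists with no call were those of endocannabinoid, glutamate, potassium and calcium genes, transcription factors, immune genes, Huntington or dystonia genes, the 6 neuronal genes named by the study, and the marker lists other than the astrocyte list, in which Slc1a3 was the 1 called of 3 tested.

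**Figure D5:**
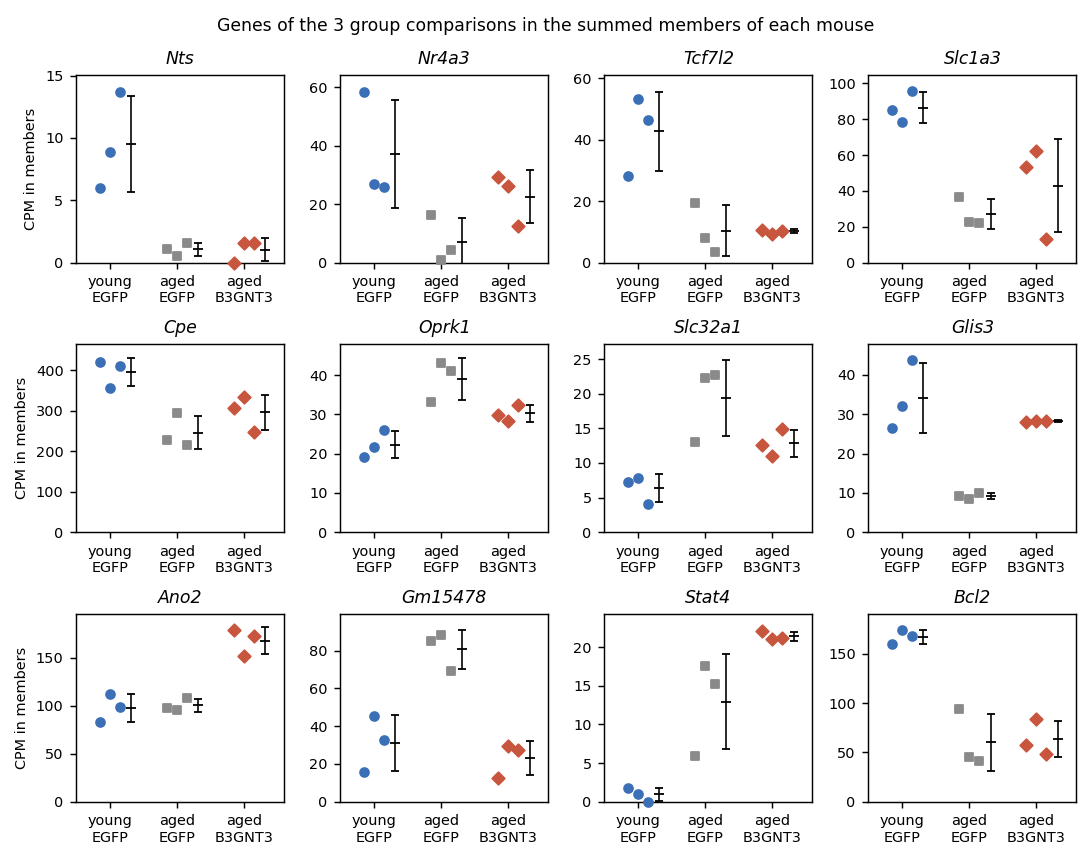
CPM (y axis, TMM-scaled, from 0) of 12 genes in the summed members of each mouse by group (x axis), with 1 point per mouse and the mean with SD beside the points. Glis3 in aged AAV-EGFP mice, from 8.50 to 9.96 CPM, lies below every mouse of the other groups, and Stat4 lies at or below 1.81 CPM in young mice and from 21.02 to 22.1 CPM in aged AAV-B3GNT3 mice.

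Aged AAV-B3GNT3 mice were set against aged AAV-EGFP mice to ask whether the endothelial vector was followed by a change in these neurons. Few genes were called, and most of them were noncoding RNAs. In all, 26 of 10770 genes were called (0.241%), 2 higher (0.0186%) and 24 lower (0.223%) with AAV-B3GNT3, and the median over all genes was 0.0058. No gene was called by edgeR under the stricter gate (1193 at an unadjusted p under 0.05) or without the upper limit on genes (1201). Leaving out young replicates 1, 2 and 3 gave 70, 44 and 1 calls, leaving out aged AAV-EGFP replicates gave 111, 0 and 15, and leaving out AAV-B3GNT3 replicates gave 0, 0 and 118, with 828 to 997 genes at an unadjusted p under 0.05 where none was called.

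Ano2, a calcium-activated chloride channel, was at 97.5, 95.6 and 108 CPM in aged AAV-EGFP mice and 178, 152 and 173 in aged AAV-B3GNT3 mice. The groups did not overlap, and the log2 change was 0.74 ± 0.14 (n = 3 per group, edgeR adjusted p = 0.0466). Glis3 was at 9.21, 8.50 and 9.96 CPM in aged AAV-EGFP and 28.0, 28.4 and 28.4 in aged AAV-B3GNT3 mice, against 26.5, 32.2 and 43.8 in young mice. It rose by 1.60 ± 0.23 on the log2 scale (edgeR adjusted p = 0.0323) while the astrocyte list in members was lower in aged AAV-EGFP mice than in 2 of 3 AAV-B3GNT3 mice.

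Among falls, Gm15478, antisense to the phospholipid flippase gene Atp8a1, was at 85.1, 88.2 and 69.1 CPM in aged AAV-EGFP mice and 12.5, 29.4 and 27.3 in aged AAV-B3GNT3 mice, a log2 change of -1.78. The 2 groups were apart, and young mice averaged 31.3 ± 14.9. Gm15520 (antisense to Ntm, -2.09), Gm32250 (a lincRNA, -1.88), Gm13944 (antisense to Zfp385b, -1.77) and Gm44040 (antisense to Itpr1, -1.66) also fell. Of the 24 falls 66.7% were noncoding, against 6.78% of genes tested, and reads of an antisense RNA depend on how the counting used strand.

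None of the 465 tested genes of the 30 lists was called by edgeR in this comparison, with 106 at an unadjusted p under 0.05, which 1351 of all 10770 genes reached. Penk had a log2 change of -0.29 (edgeR adjusted p = 0.486), Pde4b of -0.92 ± 0.19 (0.0541) and Ccnd2, a cyclin, of 0.76 (0.0885). The medians were -0.37 for oxidative phosphorylation and -0.31 for adhesion and wiring genes.

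Between aged AAV-B3GNT3 and young AAV-EGFP mice both age and vector differed. Here 58 of 10770 genes were called (0.539%), 31 higher (0.288%) and 27 lower (0.251%). Without young replicates 1, 2 and 3 the count was 55, 0 and 1, without the aged AAV-EGFP ones 211, 51 and 112, and without the AAV-B3GNT3 ones 2, 12 and 10, and the fit with 0 had 983 genes at an unadjusted p under 0.05. Without the upper limit on genes 0 were called by edgeR (1220 at an unadjusted p under 0.05). Stat4, a cytokine signal transducer on chromosome 1 (51987148 to 52107189), was at 1.81, 0.985 and 0 CPM in young, 5.96, 17.5 and 15.3 in aged AAV-EGFP and 22.1, 21.02 and 21.1 in aged AAV-B3GNT3 mice. The 3 groups were fully apart, and the log2 difference was 4.20 ± 0.51 (n = 3 per group, edgeR adjusted p = 0.00461). Bcl2, an inhibitor of apoptosis, was at 160, 174 and 168 CPM in young and 57.3, 83.5 and 48.5 in aged AAV-B3GNT3 mice, with no overlap, and lower by -1.41 ± 0.26 (edgeR adjusted p = 0.0275). Aged AAV-EGFP mice averaged 60.1 ± 29.3 CPM of Bcl2 (SD, n = 3). The level of Bcl2 was 2.81 times as high in the astrocyte gate as in members.

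Other named genes of this comparison were Gm47214 (3.19), Npcd (2.66), Gm20629 (2.34), Gm46102 (1.90 ± 0.25) and Arhgef33 (1.69) among the higher ones, and Tcf7l2 (-2.07), Tcf7l1 (-1.95), Etv1 (-1.71), Zbtb40 (-1.64) and Gm48715 (-1.44), which is antisense to Dgkb, among the lower ones. Tcf7l1 and Etv1 were 9.11 and 3.75 times as high in the astrocyte gate as in members. Among the lists, Nts (-2.96) was the 1 called of 19 peptide genes. Kcnn2, the calcium-activated potassium channel SK2, was the 1 called of 37 potassium channels, at 217, 186 and 283 CPM in young and 125, 131 and 138 in aged AAV-B3GNT3 mice (-0.78 ± 0.16, edgeR adjusted p = 0.039), and was 3.99 times as high in the astrocyte gate as in members. Kcnn2 averaged 183 ± 19.9 CPM (SD, n = 3) in aged AAV-EGFP mice. The other lists had no call.

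Whether a change differed between members and Drd1 counterparts was tested directly. For ageing, 0 of 11412 genes were called by edgeR (0%), with 426 at an unadjusted p under 0.05, so no ageing change was shown to be particular to the members. The lowest p was that of Slc1a3, with a difference of -1.75 ± 0.33 (edgeR adjusted p = 0.442), which turned to 0.68 without members carrying UMIs of another class. That filter counts UMIs of Slc1a3 itself, an astrocyte marker, so it cannot test this gene. For AAV-B3GNT3, 1 gene was called (0.00876%), with 373 at an unadjusted p under 0.05. This was Egfem1, an EGF-domain gene on chromosome 3 (29082023 to 29691209). In members it was at 482, 334 and 276 CPM in aged AAV-EGFP and 535, 514 and 519 in aged AAV-B3GNT3 mice. In Drd1 counterparts it was at 845, 628 and 618 and then 484, 510.04 and 515. The treated mice were thus higher in members and lower in Drd1 counterparts, with no overlap in either kind, a difference in log2 change of 1.02 ± 0.14 (n = 3 per group, edgeR adjusted p = 0.0108). The difference was 1.04 without aged AAV-EGFP replicate 2 (edgeR adjusted p = 0.0834), 0.92 without replicate 3 (0.201), 0.97 without AAV-B3GNT3 replicate 1 (0.225) and 1.04 without replicate 2 (0.0725). In these fits the call was lost while the size stayed near that of all mice. With all mice, the difference was 0.77 under the stricter gate and 0.46 without members carrying UMIs of another class, with no call in either.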

How the data were processed

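Single-nucleus RNA was sequenced in 9 libraries, 1 per mouse. The authors deposited filtered matrices of raw UMI counts per gene and nucleus for 31053 genes. Per the labels these were made with Cell Ranger 4.0.0 against mm10, whereas the file headers name version 7.2.0. No correction for free RNA was applied here and no nucleus was removed as a doublet. An alternative left out members with 3 or more UMIs over the markers of any of 7 other classes. These markers include Adarb2, which Drd1 counterparts also carried, and Slc1a3, which was itself tested.

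Counts were summed per mouse over members, and over Drd1 counterparts, and tested with edgeR 4.0.16 in R 4.3.3 (filterByExpr with a minimum count of 10, TMM, glmQLFit and glmQLFTest, all 3 groups in 1 fit, mouse as a block between kinds). The SE of a log2 difference was not fitted directly. It was derived as the size of the difference divided by the square root of the F statistic of the quasi-likelihood test. The 11 genes of the rule were left out of tests. DESeq2 1.42.0 was an alternative, with other gates, filters, scalings and leaving out each mouse. The fits were tested on simulated data. Replicates are separate mice, so p-values of the 3 group comparisons measure the spread between mice, which includes dissection. Between kinds, with mouse as a block, p-values measure how the difference within a mouse varies from mouse to mouse. In summed nuclei, fewer cells and less RNA per cell cannot be told apart.

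Members and the 30 gene lists were chosen with earlier results of these data known. Named genes were the 6 largest called rises and falls per group comparison with a mean of 20 or more counts and no overlap between groups, the 10 largest per direction between kinds, the 3 of lowest p for each difference, and up to 4 called genes per list. Genes outside that rule (Adk, Chat, Slc5a7, Ankk1, Gucd1, Specc1l, Gm48550 and Hrh2) were chosen after their values were seen. Some genes that the rule names are not reported here. Shares were compared by exact permutation in SciPy 1.17.1. Promoter windows came from RefSeq and gene positions from the GRCm38 annotation.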

Additional observations from a re-analysis of the deposited data

Results flagged for a closer look

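Egfem1 was singled out because its change with AAV-B3GNT3 in aged mice differed between members and Drd1 counterparts, by 1.02 on the log2 scale (edgeR adjusted p = 0.0108, 3 mice per group). Mean CPM was 364 ± 106 (SD) and then 523 ± 10.7 in members, and 697 ± 128 and then 503 ± 16.6 in Drd1 counterparts. The difference was not called under the stricter gate (0.77), without an upper limit on genes (0.89), with members chosen on Adora2a (0.87) or without members carrying UMIs of another class (0.46). The next genes by p, Eya1 (1.26) and Il1rapl2 (0.93), had an edgeR adjusted p of 0.56.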

How the results depend on the processing

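Counts of called genes between members and Drd1 counterparts held better than those of the group comparisons with 1 mouse left out, at 822 to 957. They moved more with other choices: 610 with DESeq2, 476 without members carrying UMIs of another class, 1178 with no filter on low counts and 1449 with the gate on Adora2a. Of the 982 calls, 375 were also called without members carrying UMIs of another class. Group comparisons were unstable. With 1 mouse left out the counts were 1 to 1015 for ageing, 0 to 118 for AAV-B3GNT3, 0 to 211 for both together, 0 to 1 for the ageing difference between kinds and 0 to 2 for the AAV-B3GNT3 difference, and the share p (exact permutation) was 0.0357 to 0.764. In the order ageing, AAV-B3GNT3 and both, counts were 781, 347 and 487 with no filter on low counts, 64, 48 and 247 with only the groups compared, 51, 0 and 91 under the stricter gate, and 2, 0 and 0 with no upper limit on genes. DESeq2 gave 157, 100 and 128, the gate on Adora2a 85, 12 and 85, and members without astrocyte UMIs (chosen after seeing the data) 44, 17 and 45. RLE scaling gave 11 for AAV-B3GNT3, and leaving out members with UMIs of another class 93 for both. The differences between kinds had 27 and 29 calls with no filter, 2 and 0 without members carrying UMIs of another class, and 2 and 0 with the gate on Adora2a, and AAV-B3GNT3 had 0 under the stricter gate and with no upper limit. The causes were not tested. The replicate block gave 15, 21 and 30 calls. Samples of 1 number did not deviate together (r from -0.156 to 0.179, median -0.025, 9 pairs), and 3 of 9 samples correlated best with their own number. The labels do not say what the numbers mean. With so few mice these correlations cannot decide whether mice of 1 number were handled together. Signs turned for Sema5b between kinds (0.16) and for the ageing difference of Slc1a3 (0.68) without members carrying UMIs of another class. For Slc1a3 that filter counts the gene's own UMIs, so its turn is no test of the gene. Signs also turned for Synpr between kinds (-0.16) with the gate on Adora2a, and for the AAV-B3GNT3 difference of Il1rapl2 (-0.000883) with no upper limit on genes. Of the other values of named genes, 179 for ageing, 92 for AAV-B3GNT3 and 165 for both kept side and direction, and 192, 59 and 97 kept direction only. Depth limits low genes: Nts had at most 27 UMIs a mouse.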

Other observations

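Chat, the acetylcholine-synthesizing enzyme, was picked out after its values were seen. It was detected in 4.92% of members and 4.70% of Drd1 counterparts, against 0.02% of the oligodendrocyte gate, 0.03% of the glutamatergic gate and 0.12% of the astrocyte gate. Chat was not confined to the 2 kinds. By mouse it was in 0% to 9.09% of nuclei with 1 striatal gene and 0.65% to 2.92% of those with neither receptor. In young replicate 1, a single nucleus with 1 striatal gene held 14 UMIs of Chat. Median UMIs per nucleus by mouse were 1918.5 to 2947 in the oligodendrocyte gate, 2922 to 4132 in the astrocyte gate and 11238 to 15183 in the glutamatergic gate, so the last was deeper than the members. By mouse the share in members ran from 0 of 70 nuclei, which allows up to 4.29% of nuclei with a UMI and sets no limit on cells that express the gene, to 7.79%, and in Drd1 counterparts from 2.25% to 7.09%. Members held 121 UMIs and Drd1 counterparts 75, and the difference did not pass the edgeR test (log2 difference 0.44 ± 0.24, adjusted p = 0.352). Other genes of cholinergic neurons were in fewer members: Slc5a7, the choline transporter, was in 0.58%, Lhx8 in 0.31% and Slc18a3, the vesicular transporter whose gene lies within the Chat locus, in 0.05%. Tacr1, also of the cholinergic list, was in 2.72% of members but with 164 UMIs, more than Chat. In Drd1 counterparts Tacr1 was in 6.73%, a larger share than that of Chat.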
